A study of Mus musculus with 18 samples.

Results

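Solute carriers are membrane proteins that move nutrients, ions, metals and metabolites across the plasma membrane and the membranes of organelles. Mouse solute carrier genes, whose symbols start with Slc and a family number, were followed here in macrophages that lack the transcription factors Bhlhe40 and Bhlhe41 and in wild-type macrophages. Of 370 such genes in the tables (Slc40a1 and Slc11a1 left out), 175 had a mean of at least 5 TPM, a length-normalized share of all transcripts in a library, in at least 1 of 6 groups and form the set described below, out of 24732 features in all. The members were selected on the measured TPM themselves, so that these genes are expressed somewhere is not a result. Just inside the threshold were Slc22a4, Slc38a9 and Slc22a15, with highest group means of 5.02, 5.55 and 5.61 TPM, and just outside it were Slc12a2, Slc18b1 and Slc25a40, with 4.96, 4.68 and 4.60 TPM. In the set, 130 genes reached 5 TPM in all 6 groups and 8 in only 1 group. By the known substrates of their families, 33 were mitochondrial carriers, 27 carried amino acids, peptides or their derivatives, 25 carried nucleotide sugars and related substrates into the endoplasmic reticulum and Golgi, and 23 carried metals. A further 22 carried inorganic ions, 18 monocarboxylates and other organic ions, 9 vitamins and choline, 7 sugars and polyols, 4 nucleosides and 2 fatty acids. The remaining 5 have solute carrier symbols without being transporters, among them the scaffold proteins Slc9a3r1 and Slc9a3r2.

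The mutant (DKO) macrophages had the genotype Bhlhe40-/-Bhlhe41-/- and the wild-type (WT) ones Bhlhe40+/+Bhlhe41+/+, both on a C57BL/6 background. Each genotype was studied in 3 populations with 2 libraries each: alveolar macrophages of the steady-state lung, alveolar macrophages from chimeras made with mixed bone marrow, and macrophages of the peritoneum. Lungs were digested and alveolar macrophages sorted as CD11c+ SiglecF+ cells with low CD11b. Peritoneal lavage cells were sorted as CD11b+ F4/80+ Tim4+ with intermediate MHCII. In the chimeras the sort also took DKO cells as CD45.1- CD45.2+ and WT cells as CD45.1+ CD45.2-, so the genotype and the CD45 allele cannot be told apart there. The labels give no age, sex, recipient strain or pooling of animals. The series design calls the 2 libraries of a group biological replicates, and p-values below measure the spread between these samples.

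Alveolar macrophages live in the air spaces of the lung and take up surfactant and debris, so amino acids, metals and lipids released in lysosomes leave through carriers of the lysosomal membrane. At the plasma membrane, light chains of the Slc7 family pair with the heavy chain Slc3a2 to exchange amino acids, facilitative carriers of the Slc2 family bring in glucose, and Slc16 carriers move lactate. Carriers of the Slc25 family connect the mitochondrial matrix with the cytosol. Bhlhe40 and Bhlhe41 are basic helix-loop-helix proteins that act mainly as repressors and bind E-box sequences in DNA.

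Recovered from the deposited values, the depth of DKO chimera replicate 1 came to 6.59 M reads, and that of the other libraries to between 16.51 and 29.34 M. Bhlhe40 had 65.7 to 243 TPM in DKO libraries and 213 to 940 TPM in WT libraries, lower in DKO within each population. Bhlhe41 was not lower in DKO libraries (75.4 to 156 TPM in DKO, 1.90 to 100 TPM in WT), a gene-level value that does not show whether the deleted part was read. Summed marker genes of alveolar macrophages were higher in DKO in steady state, at 21914 to 25515 TPM in DKO and 18693 to 20206 TPM in WT libraries. In chimeras they were lower, at 12052 to 12488 TPM in DKO and 15999.6 to 16239.9 TPM in WT libraries. The steady-state list was split between directions. Marco, Fabp4 and Itgax were higher in both DKO libraries, with Marco at 3615 and 4218 TPM in DKO and 391 and 368 TPM in WT. Siglec5, Pparg, Car4 and Krt19 were lower in both, with Krt19 at 544 and 593 TPM in DKO and 1897 and 1739 TPM in WT. Chil3 overlapped between the genotypes. The chimera list was split as well. Marco, Fabp4, Itgax and Pparg were higher in both DKO chimera libraries, and Siglec5, Car4, Krt19 and Chil3 were lower in both. Chil3, the most abundant marker there, had 8448 and 9195 TPM in DKO and 12185 and 12343 TPM in WT chimera libraries. Summed marker genes of peritoneal macrophages (5 of 6 found) were at 11518 to 11651 TPM in DKO and 14535 to 14889.5 TPM in WT peritoneal libraries. Alox15, Gata6 and Itgam were lower in both DKO peritoneal libraries, while Timd4 and Icam2 overlapped between the genotypes. Alox15, the most abundant of them, had 5701 and 5452 TPM in DKO and 8435 and 8277 TPM in WT. Among 9 lists for other cells, lung epithelium (5 of 5 markers found) summed to 176 to 189.9 TPM in DKO and 83.6 to 131 TPM in WT steady-state libraries, and to 38.5 to 57.9 TPM in DKO and 102 to 128 TPM in WT chimera libraries. The neutrophil list (3 of 4 found) summed to 80.0 to 104 TPM in DKO and 17.9 to 20.1 TPM in WT steady-state libraries, nearly all of it from S100a8. Their part in the results was not tested. Summed lists of B cells, T and NK cells, eosinophils and mast cells, erythrocytes and platelets, endothelium and fibroblasts, and mesothelium were under 7 TPM in every library. The dendritic cell list summed to 4.02 to 4.06 TPM in DKO and 15.2 to 15.98 TPM in WT peritoneal libraries. As a scale for the statements on overlap below, both DKO libraries lay above both WT libraries for 19.2% of all features tested and below both for 57.2% in steady state. The shares were 31.9% and 30.6% in chimeras and 20.4% and 46.4% in the peritoneum, and WT alveolar libraries lay above WT peritoneal ones for 51.3% and below for 35.5%.

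Together the 175 genes made up 0.605% to 1.05% of all TPM in a library. TPM is a level per transcript length, so levels of different genes can be set side by side on this scale. The most abundant member in WT alveolar macrophages was Slc15a3, an endolysosomal peptide and histidine transporter, with 959 ± 75.3 TPM (SD, n = 2) in the steady-state lung and 64.5 ± 2.99 TPM in the peritoneum. Slc25a5, an ADP/ATP carrier, had 599 ± 17 TPM, the taurine transporter Slc6a6 586 ± 4.24 TPM and the amino acid transporter heavy chain Slc3a2 436 ± 38.1 TPM in the same WT alveolar group. By class, carriers of amino acids and peptides summed to 3303 and 3476 TPM in WT steady-state alveolar libraries against 1094 and 1146 TPM in WT peritoneal libraries. Metal carriers summed to 1355 and 1343 TPM against 827 and 822 TPM, and sugar carriers to 161 and 166 TPM against 333 and 357 TPM, in the same WT alveolar and WT peritoneal groups. The class sums do not overlap between the 2 tissues for any of these 3 classes.

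**Figure D1:**
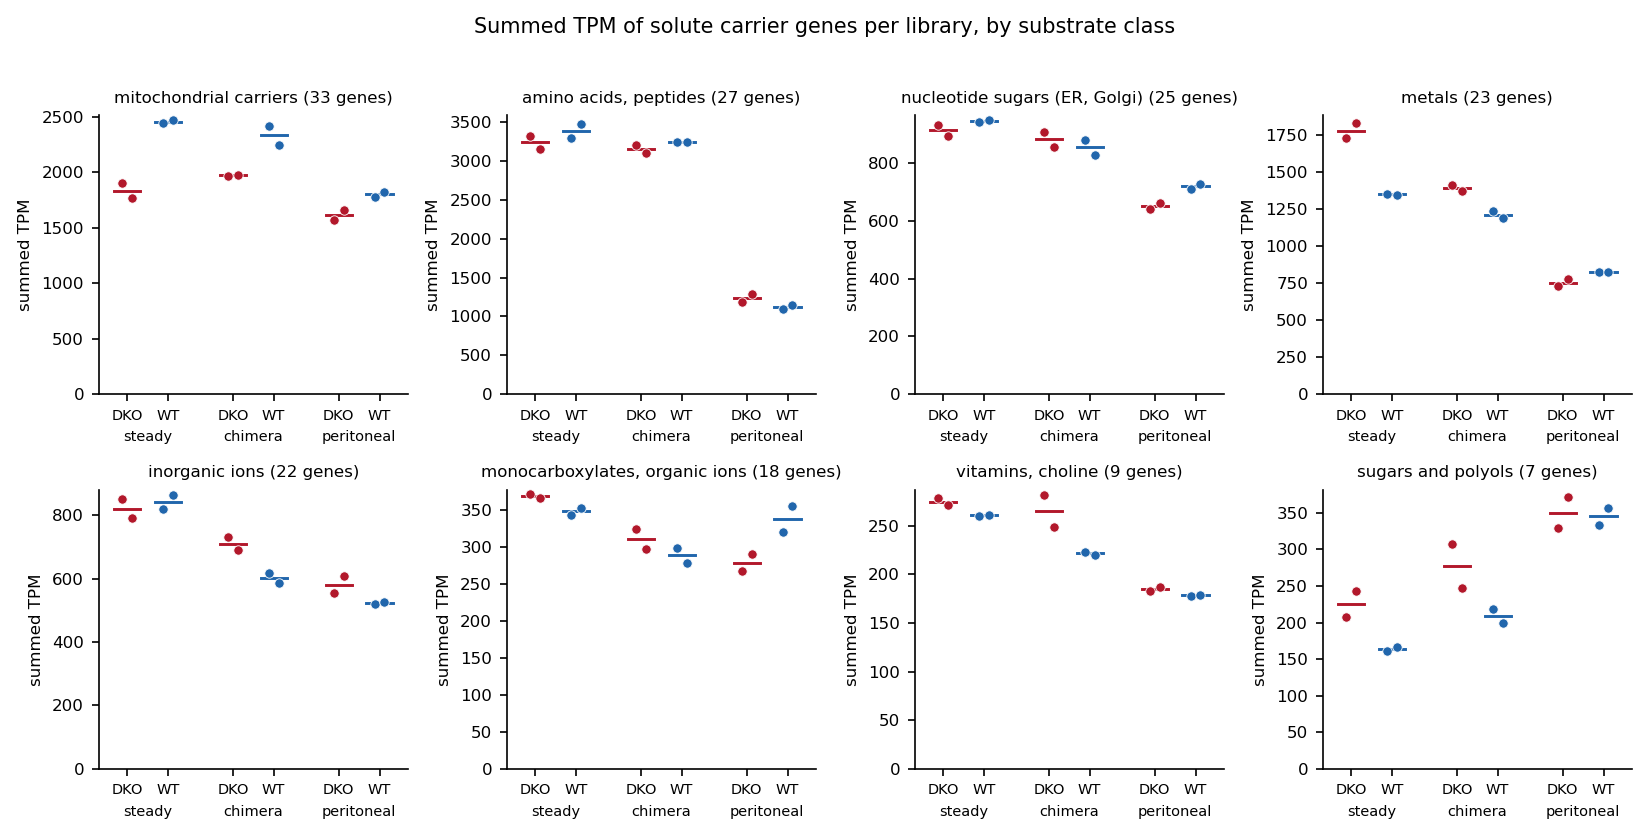
Summed TPM of the solute carrier genes of 8 substrate classes (vertical axes, linear from 0) in each of the 12 libraries, DKO in red and WT in blue, with a point per library and a line at the mean of 2. Amino acid carriers sum to at least 3101 TPM in every alveolar library and at most 1292 TPM in every peritoneal library, and metal carriers are higher in DKO than in WT in both alveolar settings.

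Between tissues, WT alveolar macrophages of the steady-state lung were compared with WT peritoneal macrophages by limma on log2(TPM + 1), with adjusted p under 0.05 over all 12303 features tested as the threshold. Of the 175 genes, 92 were higher in alveolar macrophages (41.3% of all features were) and 43 lower (26.7% of all features). After each library was rescaled by its median of ratios, which moved the median difference of all features from 0.16 to -0.01, the split was 74 higher and 55 lower, against 33.5% and 35.4% of all features. In bulk RNA, fewer cells of a type and less RNA per cell cannot be told apart. Because 24 genes reached 5 TPM in alveolar groups only and 9 in peritoneal groups only, their tissue difference is partly built into the set and is given without a test. Over the other 142 genes, 70 were higher and 33 lower in WT alveolar macrophages, or 53 and 45 after rescaling.

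Several carriers were read almost only in 1 tissue. Slc6a4, the serotonin transporter, had 148 and 151 TPM in WT alveolar libraries, against 0.0287 and 0 TPM in WT peritoneal libraries. Slc39a2, a zinc importer, had 131 and 118 TPM in WT alveolar libraries, against 0.101 and 0.0424 TPM in WT peritoneal libraries. The sodium-proton exchangers Slc9a4, Slc9a7 and Slc9a2 had 35.4 to 102 TPM in these WT alveolar libraries and under 0.3 TPM in the WT peritoneal libraries. In the other direction, the concentrative purine nucleoside transporter Slc28a2 had 0.0312 and 0 TPM in WT alveolar libraries, against 28.5 and 21.9 TPM in WT peritoneal libraries. Its facilitative counterpart Slc29a1 had 299 and 299 TPM in WT alveolar libraries, against 32.5 and 33.6 TPM in WT peritoneal libraries (log2 difference 3.14 ± 0.07 SE, adjusted p = 6.2e-11 by limma with Benjamini-Hochberg adjustment). Slc28a2 was the carrier near 0 in the lung, whereas Slc29a1 was read in both tissues. Slc2a6, a hexose transporter of the glucose transporter family, was lower in WT alveolar macrophages, with 9.76 and 7.89 TPM in WT alveolar libraries, against 141 and 156 TPM in WT peritoneal libraries (log2 difference -3.93 ± 0.37 SE, adjusted p = 5.5e-06). Slc2a1, the main basal glucose transporter, was higher, with 33.5 and 36.3 TPM in WT alveolar libraries, against 11.4 and 14.7 TPM in WT peritoneal libraries (log2 difference 1.36 ± 0.21 SE, adjusted p = 0.00019). The monocarboxylate family member Slc16a13 was also lower in WT alveolar than in WT peritoneal macrophages (log2 difference -2.78 ± 0.12 SE, adjusted p = 1.5e-08).

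In DKO alveolar macrophages of the steady-state lung, 39 of the 175 genes were higher than in WT and 54 lower, where 12.2% of all features were higher and 39.4% lower. Rescaling moved the median difference of all features from -0.22 to 0.00 and the split to 64 higher and 33 lower, against 20.5% and 17.9% of all features. All 39 higher genes were higher on both scales, and 33 of the 54 lower ones were lower on both. In chimeras, 37 genes were higher and 16 lower in DKO, where 13.7% and 13.6% of all features were. Rescaling gave 41 and 17 there, against 16% and 12.8% of all features. The number lower in chimeras was 6 without WT chimera replicate 1 and 10 without DKO chimera replicate 1. The 2 alveolar comparisons share no library. Of the genes higher in DKO, 27 were higher in both, which is 69.2% of the steady-state list and 73% of the chimera list. Over all features tested, 894 were higher in both, 59.8% and 53% of the corresponding lists. The difference was at least 1 in both settings for 8 of the 27, of which 3 had reached 5 TPM in DKO groups only, and for 273 of all features. Lower in both were 12 genes, 22.2% and 75% of the member lists, against 24.5% and 71% over all features. All 27 genes stayed higher in both after rescaling, and 9 of the 12 stayed lower, without Slc16a10, Slc25a4 and Slc25a11. No gene of the set was past the threshold in opposite directions in the 2 settings.

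**Figure D2:**
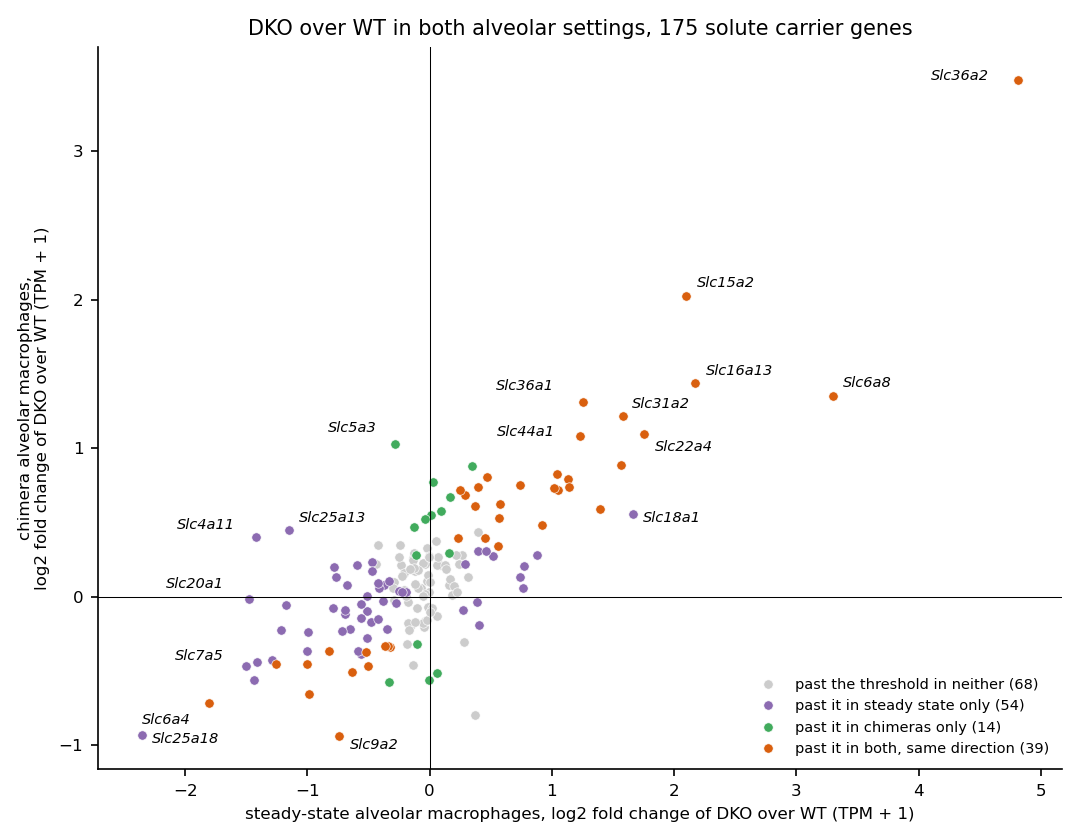
Log2 fold change of DKO over WT on the log2(TPM + 1) scale for the 175 genes, in steady-state (horizontal) and chimera (vertical) alveolar macrophages, coloured by whether adjusted p was under 0.05. The 39 genes in orange were past it in both settings in the same direction, 27 higher and 12 lower, and Slc36a2, Slc6a8, Slc16a13 and Slc15a2 lie farthest to the upper right.

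By class, 10 carriers of amino acids and peptides were higher and 10 lower of 27 in steady-state DKO macrophages (12 and 8 after rescaling), and 11 and 3 in DKO chimera macrophages, on both scales. Before rescaling, these and the next counts stand against 12.2% of all features higher and 39.4% lower in steady state, and 13.7% and 13.6% in chimeras. The rescaled counts stand against 20.5% and 17.9% in steady state, and 16% and 12.8% in chimeras. Of 23 metal carriers, 8 were higher, 2 lower and 13 not past the threshold in steady state (14 higher and 1 lower after rescaling). In chimeras 7 metal carriers were higher, 2 lower and 14 not past it (8 and 2 after rescaling). Their median log2 difference was 0.08 in steady state and 0.22 in chimeras, against -0.22 and 0.01 over all features. Of 33 mitochondrial carriers, 1 (3.03%) was higher and 15 (45.5%) lower in steady state, and 3 were higher and 6 (18.2%) lower in chimeras. Before rescaling, these shares of lower genes were near those of all features. After rescaling 8 mitochondrial carriers were higher and 10 (30.3%) lower in steady state, and 3 higher and 6 (18.2%) lower in chimeras. On that scale 17.9% and 12.8% of all features were lower. Of 18 monocarboxylate and organic ion carriers, 7 were higher and 4 lower in steady state (9 and 1 after rescaling), and 4 and 1 in chimeras. Of 25 carriers of the endoplasmic reticulum and Golgi, 2 were higher and 9 lower in steady state, and 4 and 3 after rescaling. These class counts include genes that reached 5 TPM in 1 genotype only, whose direction was partly fixed by the choice of members. In steady state they are Slc36a2 and Slc15a2 among the higher amino acid and peptide carriers, and Slc22a4 and Slc18a1 among the higher organic ion carriers. Among the lower genes they include Slc22a15 of the organic ion carriers and Slc25a18 of the mitochondrial carriers.

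Of the proton-coupled amino acid and peptide carriers, Slc36a1, which exports small amino acids from lysosomes, had 118 and 111 TPM in DKO libraries, against 47.5 and 47.4 TPM in WT libraries in the steady-state lung (log2 difference 1.26 ± 0.12 SE, adjusted p = 3.1e-05). In chimeras it had 71.8 and 72.4 TPM in DKO libraries, against 28.5 and 28.6 TPM in WT libraries (log2 difference 1.31 ± 0.12 SE, adjusted p = 4.6e-05). The groups do not overlap in either setting, and the 2 libraries of a group lie close together. Its paralog Slc36a2, a carrier of glycine and proline, had 28.7 and 38.1 TPM in DKO libraries, against 0.251 and 0.172 TPM in WT libraries in steady state. In chimeras Slc36a2 had 12.6 and 10.9 TPM in DKO libraries, against 0.108 and 0.174 TPM in WT libraries. Slc36a2 was thus close to absent from WT alveolar macrophages, with 8 reads over the 2 WT steady-state libraries and 1304 over the 2 DKO ones. The peptide transporter Slc15a2 had 18.5 and 12.4 TPM in DKO libraries, against 2.01 and 3.72 TPM in WT libraries in steady state. In chimeras Slc15a2 had 3.698 and 3.81 TPM in DKO libraries, against 0.156 and 0.177 TPM in WT libraries. Since Slc36a2 and Slc15a2 reached 5 TPM in DKO groups only, their values are given without a test. Other genes of these 2 families differed less in steady state, by 0.09 ± 0.12 for Slc36a4, -0.05 ± 0.09 for Slc15a3 and -0.01 ± 0.09 for Slc15a4, none past the threshold. After rescaling the values were 0.35, 0.22 and 0.25 (adjusted p = 0.019, 0.053 and 0.051), and without DKO steady-state replicate 1 that of Slc36a4 was -0.11. For Slc36a4 the chimera difference was past the threshold on both scales (log2 difference 0.58 ± 0.12 SE, adjusted p = 0.0053). In peritoneal macrophages Slc36a2 stayed under 1 TPM in all 4 libraries and Slc36a1 had 45.4 and 62.2 TPM in DKO and 45.1 and 42.3 TPM in WT (log2 difference 0.28 ± 0.12 SE, adjusted p = 0.13), where rescaling gave 0.41 (adjusted p = 0.022). Without DKO peritoneal replicate 1 the peritoneal difference of Slc36a1 was 0.50 and past the threshold, and without DKO peritoneal replicate 2 it was 0.05.

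**Figure D3:**
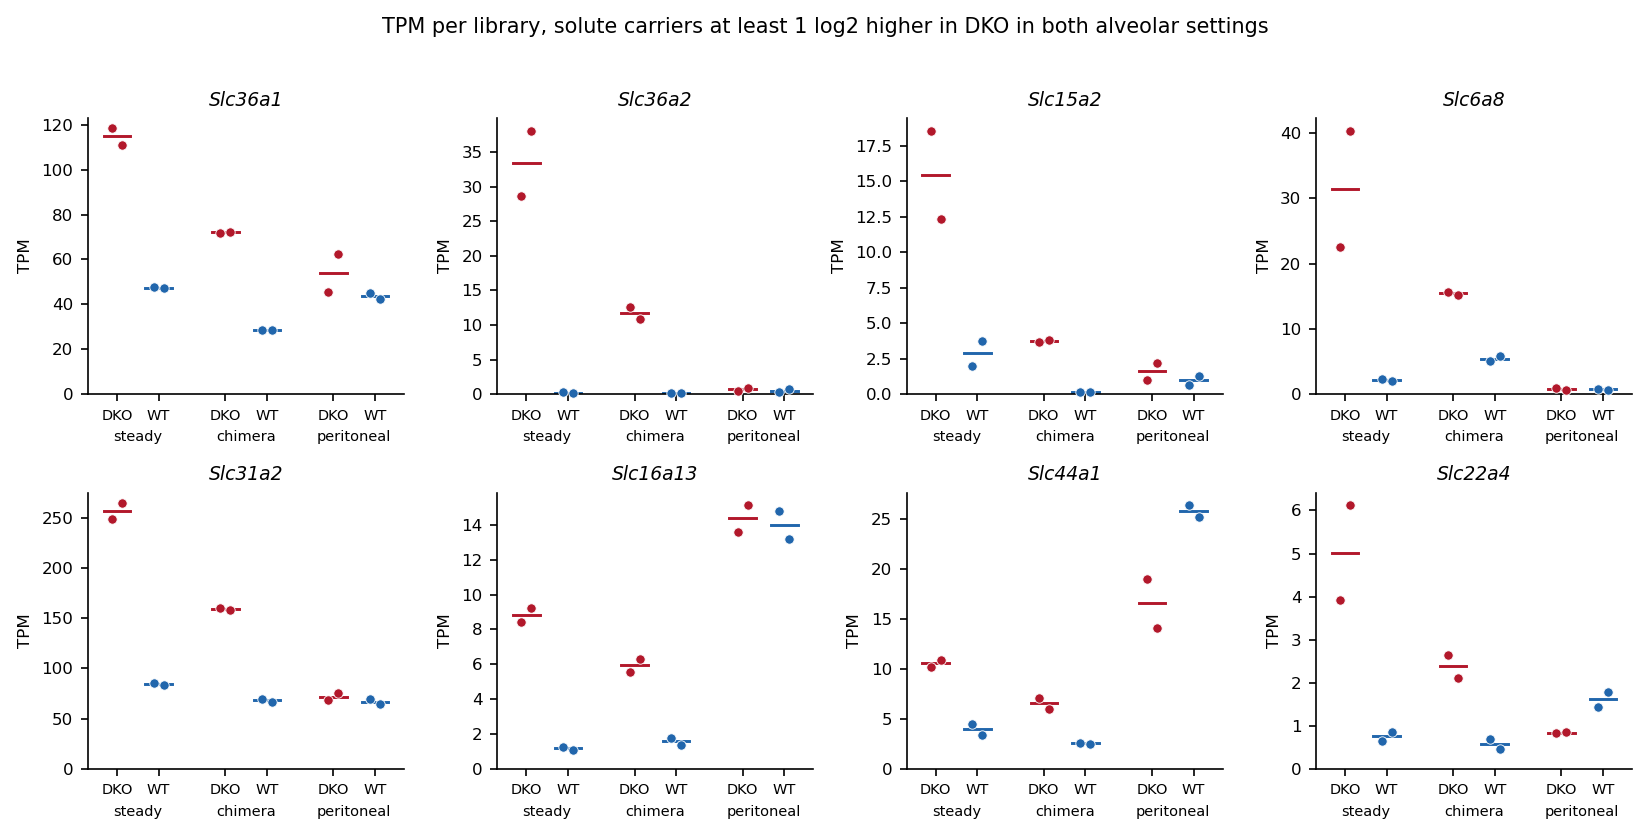
TPM per library (linear axes from 0) of the 8 genes with a log2 difference of at least 1 in DKO over WT in both alveolar settings, DKO in red and WT in blue, lines at the mean of 2. Within both alveolar settings every DKO library lies above every WT library, as the choice of these genes requires. In the peritoneum Slc15a2, Slc16a13, Slc31a2, Slc36a2 and Slc6a8 overlap between genotypes.

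The creatine transporter Slc6a8 had 22.6 and 40.3 TPM in DKO libraries, against 2.297 and 2.07 TPM in WT libraries in steady state (log2 difference 3.30 ± 0.22 SE, adjusted p = 3.0e-06). In chimeras Slc6a8 had 15.7 and 15.2 TPM in DKO libraries, against 5.03 and 5.87 TPM in WT libraries (log2 difference 1.35 ± 0.22 SE, adjusted p = 0.0017). The 2 DKO steady-state libraries are far apart, but both are above the WT ones. Slc31a2, a copper carrier of late endosomes and lysosomes, had 248 and 265 TPM in DKO libraries, against 85.9 and 83.8 TPM in WT libraries in steady state (log2 difference 1.58 ± 0.07 SE, adjusted p = 1.6e-07). In chimeras Slc31a2 had 159.8 and 158 TPM in DKO libraries, against 69.7 and 66.4 TPM in WT libraries (log2 difference 1.21 ± 0.07 SE, adjusted p = 2.1e-06), again with no overlap. Slc31a1, the copper importer of the plasma membrane, differed less, with 17.2 and 20.9 TPM in DKO and 14.4 and 13.99 TPM in WT steady-state libraries (log2 difference 0.40 ± 0.11 SE, adjusted p = 0.015), and lost its call without WT replicate 1, WT replicate 2 or DKO replicate 2 (0.26 to 0.41). Other metal carriers that rose in both settings were the zinc carriers Slc39a2, Slc39a7, Slc39a10 and Slc39a12 and the magnesium carrier Slc41a2. Of these, Slc39a12 lost its chimera call without any 1 of the 4 chimera libraries (0.55 to 0.71) and its steady-state call without WT replicate 1, WT replicate 2 or DKO replicate 2 (0.50 to 0.58). Slc39a2 had 258 and 292 TPM in DKO libraries, against 131 and 118 TPM in WT libraries in steady state (log2 difference 1.14 ± 0.11 SE, adjusted p = 3.6e-05). Slc41a2 had 36.3 and 36.1 TPM in DKO libraries, against 14.9 and 16.99 TPM in WT libraries there (log2 difference 1.14 ± 0.11 SE, adjusted p = 3.5e-05), and the 2 genes rose by 0.79 and 0.74 on the log2 scale in DKO chimera macrophages.

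Neutral and cationic amino acid carriers were also among those higher in both settings. Slc43a2, a facilitative carrier of large neutral amino acids, had 124 and 126 TPM in DKO libraries, against 59.3 and 59.8 TPM in WT libraries in steady state (log2 difference 1.05 ± 0.06 SE, adjusted p = 6.6e-07), and its difference was 0.71 ± 0.06 in chimeras (adjusted p = 2.0e-05, limma). Slc7a8, a light chain that pairs with Slc3a2, had 116 and 139 TPM in DKO libraries, against 47.4 and 48.2 TPM in WT libraries in steady state (log2 difference 1.39 ± 0.17 SE, adjusted p = 0.00014). In chimeras Slc7a8 had 62.99 and 61.1 TPM in DKO libraries, against 41.8 and 39.9 TPM in WT libraries (log2 difference 0.59 ± 0.17 SE, adjusted p = 0.027). The chimera call of Slc7a8 was lost without any 1 of the 4 chimera libraries, at 0.56 to 0.62, although the groups do not overlap. Slc7a2, a carrier of arginine and other cationic amino acids, had 377 and 350.2 TPM in DKO and 280.5 and 280.0 TPM in WT steady-state libraries. That steady-state call (log2 difference 0.37 ± 0.11 SE, adjusted p = 0.015) was lost in 3 of the fits that left out 1 library (WT replicate 1, WT replicate 2 or DKO replicate 1), at differences of 0.32 to 0.38. In chimeras Slc7a2 differed by 0.61 ± 0.11 (adjusted p = 0.0026, limma). Slc38a6 and Slc38a10, of a family of neutral amino acid carriers, rose by 0.57 and 0.23 in steady state and by 0.53 and 0.40 in chimeras. The steady-state call of Slc38a10 was lost without WT replicate 1, WT replicate 2 or DKO replicate 2 (0.20 to 0.25).

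Outside the amino acid and metal classes, Slc16a13, a member of the monocarboxylate transporter family, had 8.45 and 9.21 TPM in DKO libraries, against 1.25 and 1.102 TPM in WT libraries in steady state (log2 difference 2.17 ± 0.12 SE, adjusted p = 9.7e-07). In chimeras Slc16a13 had 5.58 and 6.32 TPM in DKO libraries, against 1.76 and 1.38 TPM in WT libraries (log2 difference 1.44 ± 0.12 SE, adjusted p = 3.2e-05). Its DKO alveolar levels lay between those of WT alveolar macrophages and the 14.8 and 13.2 TPM of WT peritoneal macrophages. The choline transporter Slc44a1 had 10.2 and 10.9 TPM in DKO libraries, against 4.499 and 3.399 TPM in WT libraries in steady state (log2 difference 1.23 ± 0.15 SE, adjusted p = 0.00017). In chimeras Slc44a1 had 7.096 and 6.01 TPM in DKO libraries, against 2.59 and 2.52 TPM in WT libraries (log2 difference 1.08 ± 0.15 SE, adjusted p = 0.00077). Slc22a4, a carrier of ergothioneine and other organic cations that reached 5 TPM in 1 DKO group only, had 3.91 and 6.13 TPM in DKO and 0.647 and 0.863 TPM in WT steady-state libraries and 2.65 and 2.104 TPM in DKO and 0.694 and 0.468 TPM in WT chimera libraries. Slc8b1, the sodium-calcium exchanger of the inner mitochondrial membrane, had 149 and 147 TPM in DKO libraries, against 74.7 and 70.9 TPM in WT libraries in steady state (log2 difference 1.01 ± 0.09 SE, adjusted p = 1.6e-05). The vitamin C transporter Slc23a2 had 100.4 and 84 TPM in DKO and 52.1 and 52.3 TPM in WT chimera libraries (log2 difference 0.80 ± 0.09 SE, adjusted p = 0.00017). For Slc2a1 the values were 61.8 and 85.8 TPM in DKO libraries, against 33.5 and 36.3 TPM in WT libraries in steady state (log2 difference 1.04 ± 0.21 SE, adjusted p = 0.0024). In chimeras Slc2a1 had 171 and 117 TPM in DKO libraries, against 88.2 and 71.1 TPM in WT libraries (log2 difference 0.83 ± 0.21 SE, adjusted p = 0.015), a call lost without WT chimera replicate 2 or DKO chimera replicate 1, at differences of 0.56 to 0.68. The lysosomal sialic acid exporter Slc17a5 and the carriers Slc12a9, Slc16a6, Slc25a15 and Slc35f6 were also among the 27, with differences of 0.25 to 0.92 in steady state. The steady-state calls of Slc17a5 and Slc16a6 were lost without WT replicate 1 or DKO replicate 1, at 0.19 to 0.21 for Slc17a5 and 0.29 to 0.31 for Slc16a6.

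Core promoters of the set were searched for the E-box CACGTG, the palindromic sequence that Bhlhe40 and Bhlhe41 are known to bind, which reads the same on both strands. RefSeq promoters (GRCm38.p6, 250 bases before to 50 bases after the transcription start) were at hand for 130 of the 175 genes, and 24 of them (18.5%) held the motif in any entry. The share was 8.09% of 27025 genes with a promoter in the table and 11.9% of the 9014 tested genes among them. Of the 27 genes higher in both alveolar settings, 20 had an entry and 5 held the motif (Slc12a9, Slc22a4, Slc25a15, Slc31a2 and Slc36a1), and of the 12 lower in both, 10 had an entry and 0 held it. In the larger steady-state lists, 6 of 30 higher genes with an entry (20%) and 5 of 42 lower ones (11.9%) held it. A match is a description of the sequence and shows no binding. Windows from 120 bases before to 20 bases from the start on are printed below in the direction of transcription for 4 of the 5 motif holders, and for Slc6a4, the gene with the largest steady-state fall among those lower in both, as an example without the motif. Capitals mark CACGTG.
Slc36a1 (GRCm38.p6, chr11:55204220-55204359, plus strand): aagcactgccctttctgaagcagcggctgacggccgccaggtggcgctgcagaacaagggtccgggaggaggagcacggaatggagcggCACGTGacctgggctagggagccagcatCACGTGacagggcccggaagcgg
Slc31a2 (GRCm38.p6, chr4:62286309-62286448, plus strand): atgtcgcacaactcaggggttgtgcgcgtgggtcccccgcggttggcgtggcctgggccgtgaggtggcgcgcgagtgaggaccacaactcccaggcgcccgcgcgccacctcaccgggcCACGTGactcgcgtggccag
Slc12a9 (GRCm38.p6, chr5:137333563-137333702, minus strand): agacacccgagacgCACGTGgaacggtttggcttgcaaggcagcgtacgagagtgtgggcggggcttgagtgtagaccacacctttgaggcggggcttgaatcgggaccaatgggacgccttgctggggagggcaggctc
Slc25a15 (GRCm38.p6, chr8:22398258-22398397, minus strand): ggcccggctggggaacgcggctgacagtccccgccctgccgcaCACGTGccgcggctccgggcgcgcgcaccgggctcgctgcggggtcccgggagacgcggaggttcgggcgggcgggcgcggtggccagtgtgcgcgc
Slc6a4 (GRCm38.p6, chr11:76998477-76998616, plus strand): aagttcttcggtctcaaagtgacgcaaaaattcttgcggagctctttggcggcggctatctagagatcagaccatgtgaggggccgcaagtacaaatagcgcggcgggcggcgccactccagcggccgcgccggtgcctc
Slc36a1 held 2 copies, whose first bases lie 31 and 3 bases before the start, and the copy in Slc31a2 begins at the start itself. In Slc12a9, of the cation-chloride cotransporter family, the motif begins 106 bases before the start. In Slc25a15, the mitochondrial ornithine carrier, it begins 77 bases before the start of the printed entry, which is 1 of 2 for this gene. Slc12a9 had 38.2 and 38.9 TPM in DKO libraries, against 22.4 and 23.1 TPM in WT libraries in steady state (log2 difference 0.74 ± 0.08 SE, adjusted p = 5.5e-05). In chimeras Slc12a9 had 42.7 and 39.96 TPM in DKO libraries, against 24.8 and 23.4 TPM in WT libraries (log2 difference 0.75 ± 0.08 SE, adjusted p = 9.5e-05). Slc25a15 differed by 0.46 ± 0.10 in steady state and by 0.39 ± 0.10 in chimeras, where its call was lost without WT replicate 1, WT replicate 2 or DKO replicate 1 (0.35 to 0.40). Neither gene passed the threshold in peritoneal macrophages.

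Among genes lower in DKO, the serotonin transporter Slc6a4 had the largest steady-state difference of those lower in both alveolar settings. It had 46.5 and 37.8 TPM in DKO libraries, against 148 and 151 TPM in WT libraries in steady state (log2 difference -1.81 ± 0.13 SE, adjusted p = 5.5e-06). In chimeras Slc6a4 had 88.5 and 73.8 TPM in DKO libraries, against 147 and 121 TPM in WT libraries (log2 difference -0.72 ± 0.13 SE, adjusted p = 0.0033). The genotypes do not overlap in either setting, and with a pseudocount of 0.1 the chimera difference of Slc6a4 was no longer past the threshold. The heavy chain Slc3a2 had 247 and 189 TPM in DKO libraries, against 409 and 463 TPM in WT libraries in steady state (log2 difference -1.01 ± 0.14 SE, adjusted p = 0.0003). In chimeras Slc3a2 had 351 and 323 TPM in DKO libraries, against 486 and 437 TPM in WT libraries (log2 difference -0.45 ± 0.14 SE, adjusted p = 0.034). The chimera call for Slc3a2 was lost in 6 of the fits without 1 library (each of the chimera libraries and each DKO peritoneal library), at differences of -0.53 to -0.38. Slc39a14, a carrier of zinc, iron and manganese, had 18.04 and 18.4 TPM in DKO libraries, against 44.9 and 44.95 TPM in WT libraries in steady state (log2 difference -1.26 ± 0.11 SE, adjusted p = 1.8e-05). In chimeras Slc39a14 had 32.96 and 28.1 TPM in DKO libraries, against 46.5 and 38.1 TPM in WT libraries (log2 difference -0.46 ± 0.11 SE, adjusted p = 0.013). Without WT chimera replicate 1 or DKO chimera replicate 2 that chimera call was lost, at differences of -0.32 and -0.34. The sodium-proton exchanger Slc9a2 had 24.02 and 18.3 TPM in DKO libraries, against 35.4 and 35.9 TPM in WT libraries in steady state (log2 difference -0.74 ± 0.14 SE, adjusted p = 0.002). In chimeras Slc9a2 had 5.75 and 5.02 TPM in DKO libraries, against 12.2 and 10.4 TPM in WT libraries (log2 difference -0.94 ± 0.14 SE, adjusted p = 0.001). The Golgi GDP-fucose transporter Slc35c1 and the fatty acid transport protein Slc27a4 differed by -0.52 and -0.82 in steady state and by -0.38 and -0.36 in chimeras, all past the threshold.

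**Figure D4:**
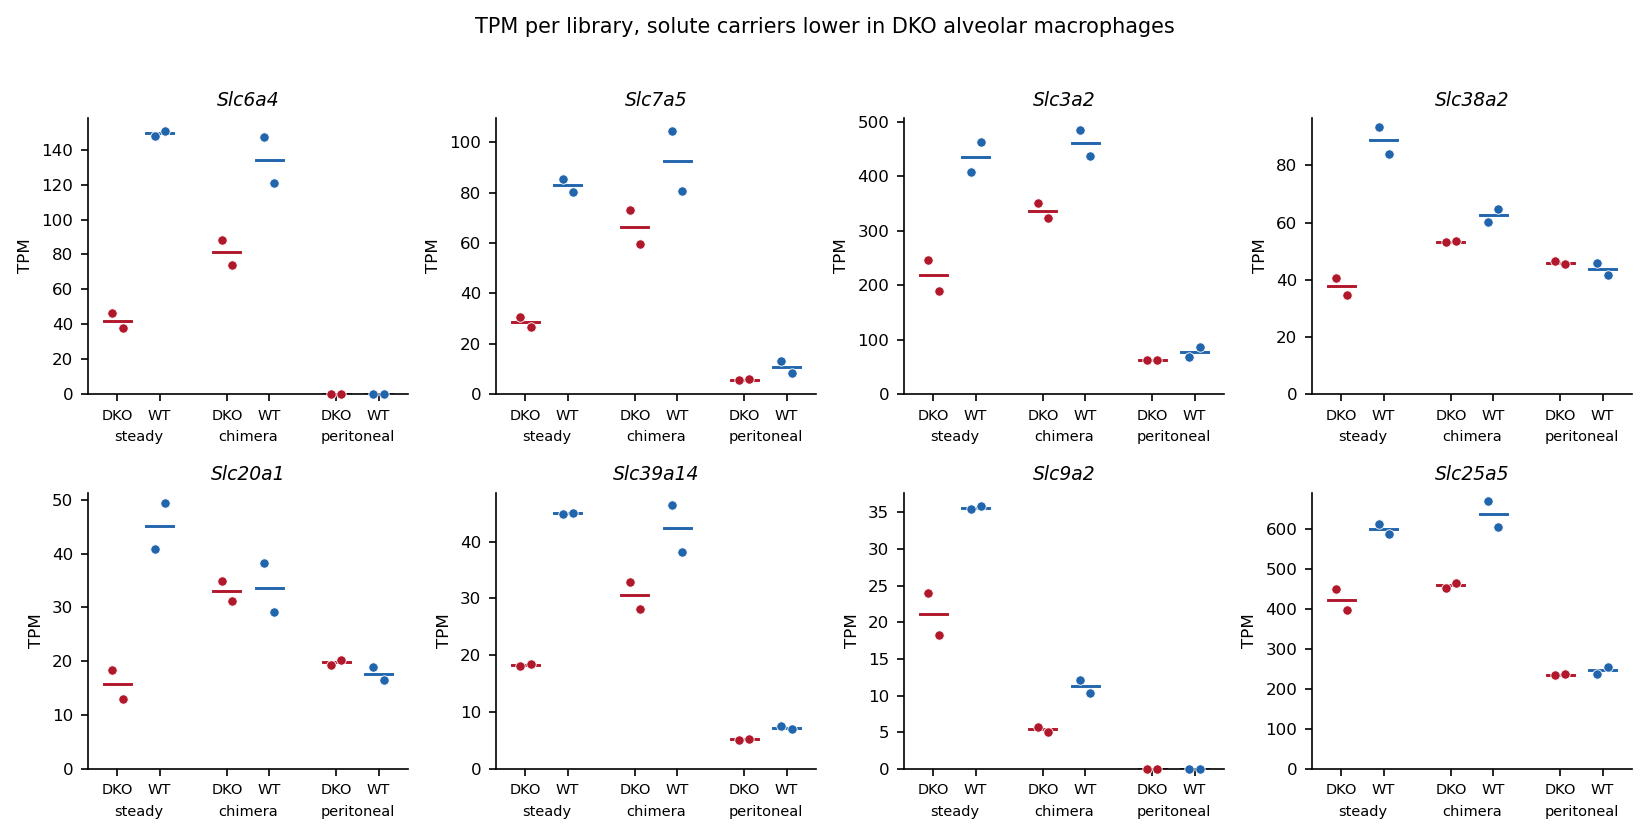
TPM per library (linear axes from 0) of 8 genes lower in DKO than in WT alveolar macrophages of the steady-state lung, DKO in red and WT in blue, lines at the mean of 2. In steady state every DKO library lies below both WT libraries for each gene, while in chimeras Slc20a1 overlaps between genotypes.

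Several amino acid carriers were lower in DKO in the steady-state lung and not past the threshold of the limma fit in chimeras. Slc7a5, the light chain that imports large neutral amino acids with Slc3a2, had 30.6 and 26.7 TPM in DKO libraries, against 85.5 and 80.4 TPM in WT libraries in steady state (log2 difference -1.50 ± 0.19 SE, adjusted p = 0.00016). In chimeras it had 73.3 and 59.8 TPM in DKO libraries, against 105 and 80.6 TPM in WT libraries (log2 difference -0.47 ± 0.19 SE, adjusted p = 0.092), a difference of -0.28 without WT chimera replicate 1. That chimera value passed the threshold in the fits without WT peritoneal replicate 1 or 2. Slc38a2, a sodium-coupled carrier of small neutral amino acids, had 40.5 and 34.8 TPM in DKO libraries, against 93.6 and 84.2 TPM in WT libraries in steady state (log2 difference -1.22 ± 0.09 SE, adjusted p = 5.9e-06). It had 53.2 and 53.4 TPM in DKO and 60.3 and 64.7 TPM in WT chimera libraries (log2 difference -0.22 ± 0.09 SE, adjusted p = 0.093), where it passed without DKO steady-state replicate 1 or 2. Slc7a11, the cystine-glutamate exchanger that also pairs with Slc3a2, had 3.13 and 5.23 TPM in DKO libraries, against 8.74 and 12.4 TPM in WT libraries in steady state (log2 difference -1.17 ± 0.24 SE, adjusted p = 0.0026). Slc1a5, a glutamine transporter, had 37.5 and 36.4 TPM in DKO and 59.9 and 60.7 TPM in WT steady-state libraries (log2 difference -0.69 ± 0.07 SE, adjusted p = 3.6e-05). For chimeras, the authors' deposited table had Slc7a5 and Slc38a2 lower in DKO (log2 fold changes -0.49 and -0.25, adjusted p = 0.036 and 0.015). In that table Slc7a11 and Slc1a5 did not pass in chimeras (adjusted p = 0.86 and 0.36). Of the heavy chain Slc3a2 and its 5 light chains in the set, Slc3a2, Slc7a5, Slc7a6, Slc7a7 and Slc7a11 were lower in steady-state DKO macrophages and Slc7a8 was higher, and Slc7a7 (-0.48 ± 0.10) was not past the threshold after rescaling (adjusted p = 0.12). The phosphate importer Slc20a1 had 18.4 and 12.96 TPM in DKO libraries, against 40.8 and 49.5 TPM in WT libraries in steady state (log2 difference -1.48 ± 0.17 SE, adjusted p = 0.00012). In chimera libraries it had 34.97 and 31.1 TPM in DKO and 38.2 and 29.1 TPM in WT, and the genotypes overlap. The steady-state differences of Slc7a5, Slc38a2, Slc7a11, Slc1a5 and Slc20a1 stayed past the threshold after rescaling, with adjusted p (limma) between 1.2e-05 for Slc38a2 and 0.015 for Slc7a11.

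Of the mitochondrial carriers, the abundant Slc25a5, which exchanges ADP for ATP, had 449 and 397 TPM in DKO libraries, against 611 and 587 TPM in WT libraries in steady state (log2 difference -0.50 ± 0.08 SE, adjusted p = 0.00061). In chimeras it had 452 and 466 TPM in DKO libraries, against 668 and 605 TPM in WT libraries (log2 difference -0.47 ± 0.08 SE, adjusted p = 0.0018), and it stayed lower in both after rescaling (adjusted p = 0.029 and 0.0021, limma). Its close paralog Slc25a4 had 185 and 198 TPM in DKO and 242 and 253 TPM in WT steady-state libraries (log2 difference -0.37 ± 0.09 SE, adjusted p = 0.0074), a call lost without WT steady-state replicate 2 (-0.33) and after rescaling (adjusted p = 0.42). Whether reads were shared between these paralogs was not tested, which leaves some uncertainty in each value. The aspartate-glutamate carrier Slc25a12 had 29.1 and 27.1 TPM in DKO libraries, against 43.7 and 44.8 TPM in WT libraries in steady state (log2 difference -0.64 ± 0.09 SE, adjusted p = 0.00035). In chimeras Slc25a12 had 22.7 and 25.02 TPM in DKO libraries, against 36.1 and 32.7 TPM in WT libraries (log2 difference -0.51 ± 0.09 SE, adjusted p = 0.0025). The other aspartate-glutamate carrier, Slc25a13, had 4.14 and 4.74 TPM in DKO and 10.5 and 11.7 TPM in WT steady-state libraries (log2 difference -1.15 ± 0.19 SE, adjusted p = 0.00093). It had 6.66 and 3.84 TPM in DKO and 3.896 and 3.08 TPM in WT chimera libraries, where it did not pass (log2 difference 0.45 ± 0.19 SE, adjusted p = 0.11). The 2 DKO chimera libraries of Slc25a13 lie apart, and its chimera difference was 0.12 without replicate 1 and 0.78, past the threshold, without replicate 2. The pyrimidine nucleotide carrier Slc25a33 had 8.505 and 5.41 TPM in DKO and 20.4 and 19.8 TPM in WT in the steady-state lung (log2 difference -1.43 ± 0.20 SE, adjusted p = 0.00032). Slc25a25, an ATP-magnesium/phosphate carrier, had 38.1 and 17.7 TPM in DKO and 63.8 and 66.3 TPM in WT there (log2 difference -1.29 ± 0.25 SE, adjusted p = 0.0024), and its difference was -0.76 without DKO steady-state replicate 2. The phosphate carrier Slc25a3 had 311 and 269.9 TPM in DKO and 416 and 439 TPM in WT steady-state libraries (log2 difference -0.56 ± 0.07 SE, adjusted p = 0.00023). The only mitochondrial carrier higher in DKO in steady state before rescaling was Slc25a15.

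The difference between the DKO effects of the 2 alveolar settings was tested as chimera minus steady state, with a common fit. For 36 of the 175 genes the effect was more positive in chimeras and for 13 more negative, where 19.9% and 4.52% of all features were. These include Slc4a11 on the positive and Slc18a1 on the negative side, whose side was partly fixed by the choice of members. After rescaling, which moved the median of all features from 0.21 to 0.01, the counts were 11 and 24, against 7.74% and 8.78%, so the balance between the directions turned with the scale. Leaving out 1 library gave 9 to 49 and 2 to 13 genes, with the fewest more positive (9) without WT steady-state replicate 2 and the fewest more negative (2) without WT steady-state replicate 2 or WT chimera replicate 1. Slc6a8 rose less in DKO chimera than in DKO steady-state macrophages (difference -1.94 ± 0.31, adjusted p = 0.0043, limma). Slc4a11, of the bicarbonate transporter family, had 2.72 and 1.01 TPM in DKO and 5.597 and 7.14 TPM in WT steady-state libraries and 4.62 and 5.41 TPM in DKO and 3.02 and 4.16 TPM in WT chimera libraries. Slc4a11 reached 5 TPM in WT steady-state and DKO chimera macrophages only, the 2 groups that make this difference of effects positive, so its value of 1.82 (1.67 without WT steady-state replicate 2) is given without a test. The sodium and myo-inositol cotransporter Slc5a3 had 6.78 and 6.101 TPM in DKO libraries, against 2.46 and 2.86 TPM in WT libraries in chimeras (log2 difference 1.03 ± 0.18 SE, adjusted p = 0.0028). It had 7.797 and 6.73 TPM in DKO and 7.59 and 10.8 TPM in WT steady-state libraries, which overlap (difference of effects 1.31 ± 0.26, adjusted p = 0.0095). Slc5a3 carries the suffix IMP_OVL in the tables, as do 19 other members, among them Slc15a3, Slc16a6, Slc25a25, Slc35f6 and Slc7a7. Its meaning is not given there, and reads of an overlapping gene could not be told apart. The effects on Slc20a1, Slc38a2 and Slc6a4 also differed between the settings, by 1.47, 0.99 and 1.09.

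In peritoneal macrophages, 16 of the 175 genes were higher in DKO and 35 lower, where 6.8% of all features were higher and 16.1% lower. After rescaling 23 were higher and 15 lower, against 11.3% and 8.32% of all features, the median of all features having moved from -0.09 to 0.01. These counts depend on single libraries. The number higher was 10 without WT peritoneal replicate 2. The number lower was 15 without WT replicate 1, 13 without WT replicate 2, 12 without DKO replicate 1 and 22 without DKO replicate 2. The nucleoside transporter Slc28a2 had the largest rise, with 59.8 and 68.1 TPM in DKO libraries, against 28.5 and 21.9 TPM in WT libraries (log2 difference 1.32 ± 0.14 SE, adjusted p = 0.0003). Both DKO libraries lie far above both WT libraries, and in the alveolar libraries Slc28a2 was under 0.1 TPM. The equilibrative nucleoside transporter Slc29a1 had 43.6 and 47.8 TPM in DKO libraries, against 32.5 and 33.6 TPM in WT libraries (log2 difference 0.45 ± 0.07 SE, adjusted p = 0.0013). The endolysosomal histidine and peptide transporter Slc15a4 had 80.3 and 79.3 TPM in DKO libraries, against 52.98 and 44.9 TPM in WT libraries (log2 difference 0.70 ± 0.09 SE, adjusted p = 0.00057). Both DKO peritoneal libraries lie within the 77.4 to 87.8 TPM of the alveolar libraries. Its relative Slc15a3 had 40.03 and 44.1 TPM in DKO libraries, against 62.4 and 66.6 TPM in WT libraries (log2 difference -0.61 ± 0.09 SE, adjusted p = 0.0014), so the 2 relatives differed in opposite directions. The taurine transporter Slc6a6 had 303 and 341 TPM in DKO libraries, against 201 and 213 TPM in WT libraries (log2 difference 0.63 ± 0.07 SE, adjusted p = 0.00027). Slc6a6 lies 26 tested features from Bhlhe40 on chromosome 6, and its alveolar levels did not pass the threshold in either setting. After rescaling its steady-state difference was 0.25, past the threshold (adjusted p = 0.013). Slc7a2 had 118 and 127 TPM in DKO libraries, against 71.7 and 81.9 TPM in WT libraries (log2 difference 0.67 ± 0.11 SE, adjusted p = 0.0022). The scaffold gene Slc9a3r2 had 218 and 230.2 TPM in DKO and 136 and 137 TPM in WT (log2 difference 0.71 ± 0.09 SE, adjusted p = 0.00086).

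**Figure D5:**
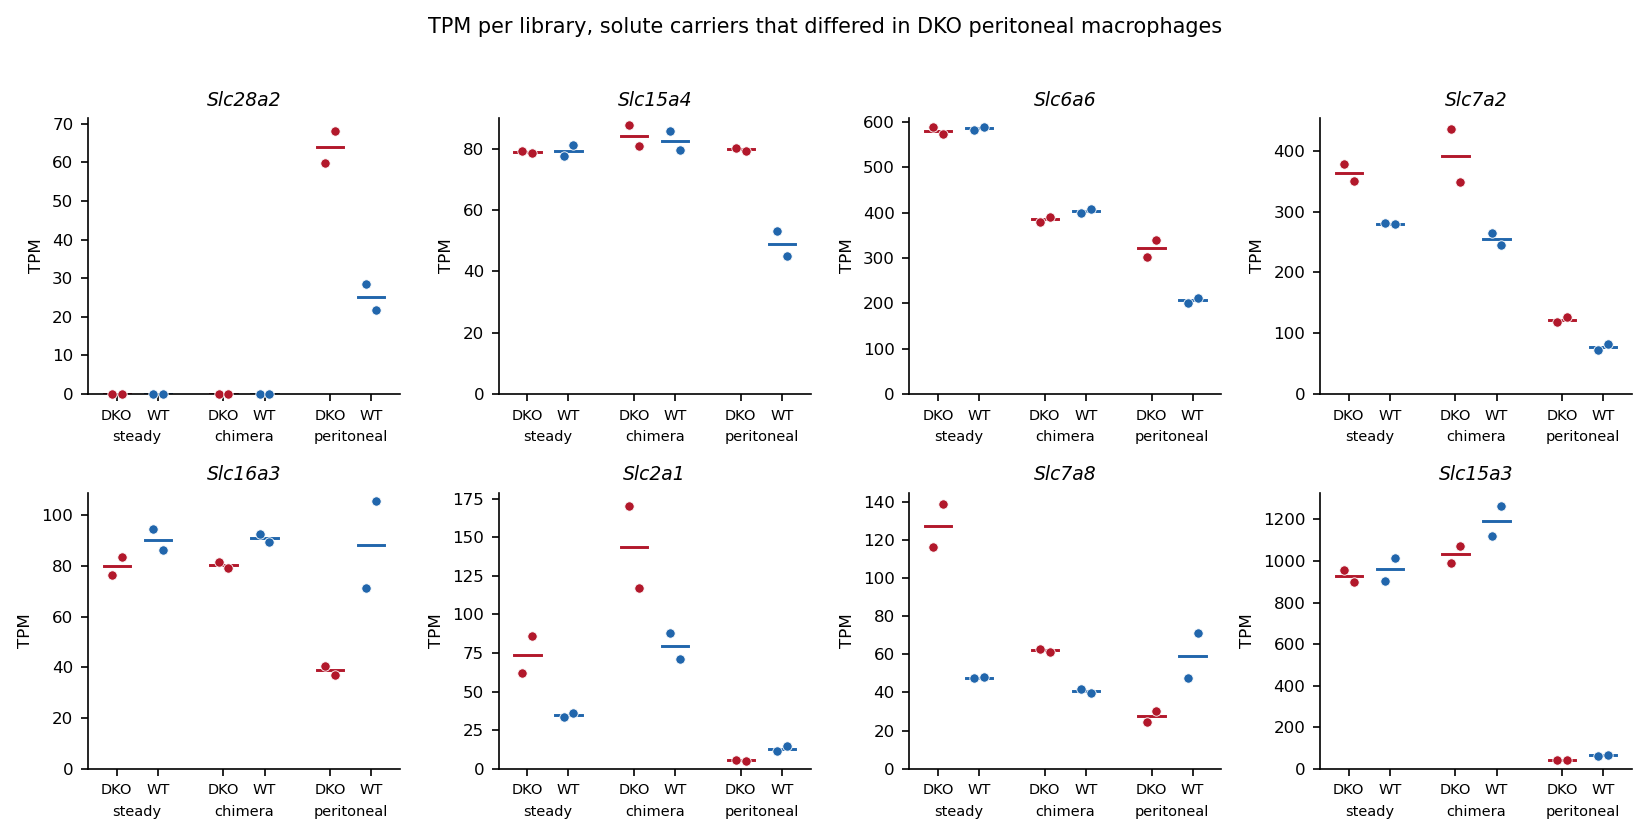
TPM per library (linear axes from 0) of 8 genes that differed between DKO and WT peritoneal macrophages, DKO in red and WT in blue, lines at the mean of 2, with the alveolar groups beside them. Slc28a2, Slc15a4, Slc6a6 and Slc7a2 are higher in both DKO peritoneal libraries than in both WT ones, and Slc16a3, Slc2a1, Slc7a8 and Slc15a3 are lower.

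Among the genes lower in DKO peritoneal macrophages, the lactate exporter Slc16a3 had 40.7 and 37.1 TPM in DKO libraries, against 71.3 and 106 TPM in WT libraries (log2 difference -1.14 ± 0.15 SE, adjusted p = 0.00077). The 2 WT libraries are well apart, and both exceed the DKO ones. Slc2a1 had 5.92 and 5.196 TPM in DKO libraries, against 11.4 and 14.7 TPM in WT libraries (log2 difference -1.09 ± 0.21 SE, adjusted p = 0.0049), a call lost without WT peritoneal replicate 2, at -0.92. The more abundant hexose carrier Slc2a6 had 175 and 199 TPM in DKO and 141 and 156 TPM in WT (log2 difference 0.32 ± 0.37 SE, adjusted p = 0.6), without overlap but not past the threshold, and the authors' deposited table gave it a log2 fold change of 0.43 with adjusted p = 7.5e-05. Slc7a8 had 24.4 and 30.5 TPM in DKO libraries, against 47.6 and 71.02 TPM in WT libraries (log2 difference -1.07 ± 0.17 SE, adjusted p = 0.002). The glutamine transporter Slc1a5 had 30.1 and 30.6 TPM in DKO libraries, against 52.2 and 49.9 TPM in WT libraries (log2 difference -0.73 ± 0.07 SE, adjusted p = 0.00012). Slc7a5 had 5.55 and 6.005 TPM in DKO libraries, against 13.1 and 8.498 TPM in WT libraries (log2 difference -0.77 ± 0.19 SE, adjusted p = 0.015), and its call was lost without WT replicate 1, DKO replicate 1 or DKO replicate 2, at differences of -0.82 to -0.49. The sodium-calcium exchanger Slc8a1 had 1.11 and 1.16 TPM in DKO libraries, against 2.49 and 2.26 TPM in WT libraries (log2 difference -0.66 ± 0.10 SE, adjusted p = 0.0018). Slc27a4 had 27.3 and 28.4 TPM in DKO libraries, against 45.5 and 46.8 TPM in WT libraries (log2 difference -0.71 ± 0.07 SE, adjusted p = 0.00019). Of the 7 sugar carriers, 0 were higher and 3 lower in DKO peritoneal macrophages (2 lower after rescaling), where 6.8% of all features were higher and 16.1% lower. Their summed TPM overlapped between the genotypes, at 329 and 371 TPM in DKO and 333 and 357 TPM in WT peritoneal libraries.

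Higher in DKO steady-state alveolar and lower in DKO peritoneal macrophages were 5 genes, Slc2a1, Slc39a7, Slc44a1, Slc7a4 and Slc7a8, and all 5 were also higher in DKO chimera macrophages. They are 2.86% of the members, where 1.28% of all features had this pattern. Slc7a4 reached 5 TPM in DKO steady-state, DKO chimera and WT peritoneal macrophages only, so it entered the set through this pattern. Another 3 genes, Slc25a23, Slc2a9 and Slc35b2, were higher in DKO chimera and lower in DKO peritoneal macrophages, which makes 8 in all, 4.57% of the members against 1.55% of all features. The reverse, lower in DKO steady-state and higher in DKO peritoneal macrophages, held for Slc35f5 alone (-0.34 ± 0.12 and 0.40 ± 0.12), 0.571% of the members against 1.29% of all features, and its steady-state call was lost after rescaling (adjusted p = 0.57). Leaving out 1 library ended its steady-state call in 9 of 12 cases, at -0.18 without DKO steady-state replicate 2, and its peritoneal call in 10 of 12. The difference of the effects, peritoneal minus steady state, was -2.46 ± 0.24 for Slc7a8 (adjusted p = 7.4e-05, limma), -2.13 ± 0.29 for Slc2a1 (adjusted p = 0.00063) and -1.86 ± 0.22 for Slc44a1 (adjusted p = 0.00025). For Slc44a1 the peritoneal values were 19.02 and 14.1 TPM in DKO and 26.5 and 25.2 TPM in WT, and this peritoneal call was lost without WT replicate 1, WT replicate 2 or DKO replicate 2 (-0.66 to -0.42) and after rescaling (adjusted p = 0.067). The peritoneal calls of Slc39a7 and Slc7a4 were also lost after rescaling (adjusted p = 0.2 and 0.088, limma). Slc39a7 lost it without WT replicate 2 or DKO replicate 1 (-0.28 and -0.26), and Slc7a4 without any 1 of the 4 peritoneal or either WT chimera library (-0.52 to -0.46). In the test of peritoneal minus steady-state effects as a whole, 31 genes were more positive and 33 more negative, where 17.3% and 11% of all features were, and 21 and 40 after rescaling, where 13.1% and 14% were. The counts before rescaling include genes whose side was partly fixed by the choice of members. Among these are Slc25a18 on the positive side and Slc15a2, Slc18a1 and Slc22a4 on the negative side. Without WT steady-state replicate 2 the number more positive was 18. These differences share their steady-state libraries with the chimera test above.

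Higher in DKO in all 3 populations were 6 genes: Slc23a2, Slc35f6, Slc38a6, Slc43a2, Slc7a2 and Slc8b1. They are 3.43% of the members, against 1.86% of all features. The vitamin C transporter Slc23a2 had differences of 0.47 ± 0.09, 0.80 ± 0.09 and 0.49 ± 0.09 in steady-state alveolar, chimera alveolar and peritoneal macrophages, on levels of 14.4 and 15.01 TPM in DKO and 10.6 and 9.72 TPM in WT peritoneal libraries. Slc38a6 differed by 0.57 ± 0.09, 0.53 ± 0.09 and 0.58 ± 0.09, and Slc8b1 by 1.01 ± 0.09, 0.73 ± 0.09 and 0.50 ± 0.09, in the same order of populations. Slc43a2 had 153 and 160.5 TPM in DKO and 125 and 123 TPM in WT peritoneal libraries (log2 difference 0.33 ± 0.06 SE, adjusted p = 0.0031). All 6 stayed higher in all 3 after rescaling. The peritoneal call of Slc35f6 (0.33 ± 0.08) was lost in each fit without 1 of the 4 peritoneal libraries, at 0.28 to 0.37. Lower in all 3 were 5 genes, the mitochondrial carriers Slc25a4, Slc25a11 and Slc25a12, the fatty acid carrier Slc27a4 and Slc39a14, which is 2.86% of the members against 3.28% of all features. Of these, Slc25a12 and Slc27a4 stayed lower in all 3 after rescaling. The peritoneal call of Slc25a12 was lost without WT replicate 1, WT replicate 2 or DKO replicate 1, at -0.41 to -0.30. The peritoneal call of Slc39a14 was lost in 4 such fits (-0.46 to -0.37) and that of Slc25a11 in 3 (-0.29 to -0.25), and the chimera calls of Slc25a4 and Slc25a11 in 3 (-0.38 to -0.25) and 2 (-0.30 to -0.23). For Slc27a4 no call was lost when any 1 library was left out.

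In all, 10 members reached 5 TPM in the groups of 1 genotype only, so their difference between genotypes is partly a condition of their choice. In DKO groups only were Slc36a2, Slc15a2, Slc22a4 and the vesicular monoamine transporter Slc18a1, which had 8.801 and 10.2 TPM in DKO and 2.38 and 2.23 TPM in WT steady-state libraries. In WT groups only were Slc12a5, Slc13a3, Slc19a2, Slc22a15, Slc25a18 and Slc38a9. The mitochondrial glutamate carrier Slc25a18 had 1.54 and 0.437 TPM in DKO and 7.400 and 10.4 TPM in WT steady-state libraries and 2.84 and 1.24 TPM in DKO and 6.51 and 3.17 TPM in WT chimera libraries, and lies 66 tested features from Bhlhe40. Slc22a15, of the organic ion transporter family, had 0.199 and 0.1798 TPM in DKO and 2.06 and 2.27 TPM in WT steady-state libraries. The dicarboxylate carrier Slc13a3 and the potassium-chloride cotransporter Slc12a5 reached 5 TPM only in WT peritoneal macrophages, with 4.03 and 4.97 TPM in DKO and 8.72 and 7.02 TPM in WT for Slc13a3 and 3.03 and 3.77 TPM in DKO and 6.41 and 6.09 TPM in WT for Slc12a5. Without these 10, the counts over 165 genes were 35 higher and 50 lower in steady state, 34 and 16 in chimeras, and 16 and 33 in peritoneal macrophages. The shares of all features were 12.2% and 39.4%, 13.7% and 13.6%, and 6.8% and 16.1%. After rescaling the counts over the 165 genes were 60 and 30, 38 and 17, and 23 and 13. These stand against 20.5% and 17.9%, 16% and 12.8%, and 11.3% and 8.32% of all features, so the balance in steady state and peritoneum turned with the scale.

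Transporters and transporter partners of the same superfamily whose symbols do not start with Slc were listed separately (27 genes, 23 of them tested). Of these, 6 were higher and 7 lower in DKO steady-state alveolar macrophages, 5 and 4 in chimeras, and 1 and 6 in peritoneal macrophages. The shares of all features were 12.2% and 39.4%, 13.7% and 13.6%, and 6.8% and 16.1%, in the same order. After rescaling the counts were 8 and 5, 7 and 4, and 4 and 3. The rescaled shares of all features were 20.5% and 17.9%, 16% and 12.8%, and 11.3% and 8.32%. In the authors' deposited table, adjusted p was under 0.05 for 61 members with a higher and 32 with a lower value in DKO steady-state alveolar macrophages, out of 173 with a value. The authors' deposited table gave 31 higher and 22 lower of 173 in chimeras, and 35 and 33 of 170 in peritoneal macrophages. Over all features with a value, the authors' deposited table had 20.2% higher and 17.1% lower in steady state, 11.9% and 10.4% in chimeras, and 17.1% and 14.8% in peritoneal macrophages.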

How the data were processed

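Of the series, 12 RNA-seq libraries were used, 2 in each of 6 groups, and 6 ChIP-seq samples were not analysed here. Poly(A) RNA was made into libraries with a NEBNext Ultra II kit, per the labels' protocols. The authors deposited TPM per gene and library, along with mean signal values (normalized counts), log2 fold changes and p-values from their own comparisons. The authors used DESeq2 1.2.10 and HTSeq 0.5.3, per the submitters' processing notes, which give no roles. Aligners in those notes are TopHat 1.4.1, Bowtie2 and Bowtie 1.0.0. The builds are GRCm38.p3 and mm9.

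Features marked IMP_DUP (474) were dropped from the choice of members and from the lists. Those that passed the level filter stayed among the features tested. Members and lists were chosen with earlier results of these data known. TPM was tested as log2(TPM + 1) with limma 3.58.1 (R 4.3.3, trend) on the 12 libraries with 6 group means and 6 residual degrees of freedom. The 12303 features with at least 1 TPM in at least 2 libraries were tested, with Benjamini-Hochberg adjustment over all of them. Log2 differences understate the change of low genes, and genes near 0 in some populations may have standard errors that are too small. Whole reads were recovered from the TPM and deposited means, and 100.0% of the values checked were whole within 0.01. They gave the depth, and a voom fit chosen after seeing the data. The fits were tested on simulated data. Alternatives were a pseudocount of 0.1, no filter, rescaling by the median of ratios, a replicate block, fits of the compared groups only, another choice of members, and leaving out each library. Genes named include, per DKO or tissue comparison, the 12 with the largest difference each way past the threshold, 6 each way for differences of effects, the 3 most abundant per class, those called in all populations or by at least 1 in both alveolar settings, and their families. Other named genes were chosen after their values were seen. Promoters came from RefSeq tables.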

Additional observations from a re-analysis of the deposited data

Results flagged for a closer look

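The DKO effect differed between chimera and steady-state alveolar macrophages for the members below, by the interaction term of the limma fit, given as the chimera effect minus the steady-state effect on the log2 scale. It was more positive in chimeras for Slc25a13 (1.60), Slc20a1 (1.47), Slc5a3 (1.31), Slc7a11 (1.12) and Slc6a4 (1.09). Of these, Slc7a11 did not pass after rescaling (0.90) or in 9 of the fits without 1 library (0.82 to 1.13). It was more negative in chimeras for Slc6a8 (-1.94), Slc7a8 (-0.80), Slc16a13 (-0.74) and Slc7a4 (-0.68). The last 3 were lost in 7, 3 and 10 of the fits without 1 library, at -0.83 to -0.67 for Slc7a8, -0.69 to -0.63 for Slc16a13 and -0.69 to -0.45 for Slc7a4. Slc36a2 (-1.33) and Slc18a1 (-1.10) reached the level for inclusion in DKO groups only and are given as values. Slc4a11 (1.82) reached it only in WT steady-state and DKO chimera macrophages, the groups that make this difference positive, and is also given as a value (1.67 without WT steady-state replicate 2). For Slc18a1 the value was -0.72 without DKO chimera replicate 2.

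The DKO effect also differed between peritoneal and steady-state alveolar macrophages, as the peritoneal minus the steady-state effect. It was more positive in the peritoneum for Slc6a4 (1.84), Slc20a1 (1.64), Slc28a2 (1.32) and Slc38a2 (1.29). It was more negative for Slc7a8 (-2.46), Slc16a13 (-2.14) and Slc2a1 (-2.13). Slc25a18 (2.37), Slc36a2 (-4.62) and Slc22a4 (-2.26) reached the level for inclusion in 1 genotype only and are given as values. Of the groups compared here, Slc4a11 reached that level in WT steady-state macrophages only, and Slc6a8 in DKO steady-state macrophages only. Their differences (1.78 and -3.24) are therefore also given as values. Slc6a4 and Slc6a8 were under 1 TPM in all peritoneal libraries, the peritoneal group means of Slc4a11 were under 1 TPM too, and Slc28a2 was under 0.1 TPM in all alveolar libraries. Both sets of differences use the same steady-state libraries.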

How the results depend on the processing

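Of the recomputed log2 differences of named genes, 3341 kept their direction and their side of the threshold, 235 lost the threshold, 14 gained it and 10 changed direction. Those 10 are steady-state differences near 0: after rescaling and with voom they were 0.25 and 0.25 for Slc6a6, 0.22 and 0.22 for Slc15a3, and 0.25 and 0.26 for Slc15a4. With 1 library left out they ranged over -0.03 to 0.01 for Slc6a6, -0.11 to 0.3 for Slc36a4, -0.13 to 0.03 for Slc15a3 and -0.04 to 0.03 for Slc15a4. Rescaling by the median of ratios gave 64 higher and 33 lower in DKO in steady state and 15 lower in the peritoneum. It gave 11 genes with a more positive and 24 with a more negative effect in chimeras than in steady state. The voom fit on recovered reads, chosen after seeing the data, gave 69 higher and 33 lower in steady state, 27 and 20 in the peritoneum, 11 and 26 for chimera minus steady state, and 20 more positive for peritoneal minus steady state. Fitting the compared groups only gave 20 and 7 for chimera minus steady state, and no filter gave 8 more negative. The cause was not tested. With 1 library left out, the counts higher and lower ranged over 30 to 39 and 39 to 61 in steady state, 29 to 44 and 6 to 22 in chimeras, 10 to 17 and 12 to 39 in the peritoneum, and 79 to 92 and 36 to 43 between tissues. For the differences of effects they ranged over 9 to 49 and 2 to 13 for chimera minus steady state, and 18 to 38 and 23 to 34 for peritoneal minus steady state.

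Same-numbered libraries were not treated as pairs in the main fit. Their deviations correlated over features at -0.043 (steady state), 0.126 (chimeras) and -0.063 (peritoneum). With 1 replicate difference per genotype in each population, these values cannot tell whether samples were paired, and the sample titles do not say. With the replicate block, the counts higher and lower were 38 and 51 in steady state, 38 and 17 in chimeras, 13 and 29 in the peritoneum, 82 and 39 between tissues, 32 and 10 for chimera minus steady state, and 30 and 32 for peritoneal minus steady state. With a pseudocount of 0.1 the chimera difference of Slc6a4 (-0.72) was no longer past the threshold, and with no filter neither were those of Slc3a2 (-0.45) and Slc7a8 (0.59). In fits of the compared groups only, Slc39a14 (-0.46) and Slc25a15 (0.39) lost theirs in chimeras. Precision is limited by 2 libraries a group and by the lower depth of DKO chimera replicate 1 (6.59 M reads).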
